A study of Mus musculus with 6 samples.

Results

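The 10 genes described here are markers of intraepithelial lymphocytes, the T cells that lie between the epithelial cells of the gut. They were taken by gene symbol, each from the brightest probe set that names 1 gene, and all 10 were found among 19938 genes measured in whole ileum, the distal small intestine. Each had exactly 1 such probe set. The study asked which ileal transcripts differ after inducible deletion of Gata6, a zinc finger transcription factor, in intestinal epithelium. The 3 control mice carried Villin-CreERT2, a tamoxifen-activated Cre recombinase under a promoter that is active in intestinal epithelium and not in lymphocytes. The other 3 mice carried the same Cre with floxed Gata6 alleles and are labelled Gata6 KO. All 6 received tamoxifen (100 mg/ml) on 5 consecutive days from 6 to 8 weeks of age. Ileum was taken 28 days later, at an age given as 10 weeks in one label and 10 to 12 weeks in another, and 1 Affymetrix mouse Gene 1.0 ST array was run per mouse. No label names the strain.

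Intraepithelial lymphocytes are mostly CD8-bearing T cells that carry alpha beta or gamma delta antigen receptors. They are held in the epithelium by the integrin alpha E beta 7, which binds E-cadherin on epithelial cells, and they are kept alive largely by interleukin 15. They store granzymes and carry killer cell receptors, and in the small intestine their precursors are drawn in by the epithelial chemokine CCL25 through its receptor CCR9. None of the 10 genes is unique to them: T cells of the lamina propria and of lymphoid follicles express most of them, and whole ileum holds all of these cells. In whole tissue, fewer lymphocytes and less RNA per lymphocyte cannot be told apart.

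Many genes differed between the groups. At a Benjamini-Hochberg adjusted p under 0.05 in limma, 995 genes were higher and 648 lower in the KO-labelled arrays, 8.24% of those tested; with arrays centred on their median the split was 824 to 863. Leaving out 1 array gave 320 to 806 higher and 277 to 597 lower genes, and every array but control replicate 2 moved at least 1 of these counts by over 1.5 times. The median log2 signal over all probe sets lay between 3.33 and 3.44 on the 6 arrays and the lower quartile between 1.67 and 1.80. Gata6 itself was not lower: it read 6.31, 6.33 and 6.50 in controls and 6.93, 6.81 and 6.86 on the KO-labelled arrays (log2 fold change 0.49, SE 0.08, limma adjusted p = 0.0162), a call lost without control replicate 1 or any 1 of the 3 KO-labelled arrays (0.0501 to 0.0623). Its signal thus does not bear out the label, and no source used here says whether its probes cover the floxed exons. Control replicate 3 read 2.31 for the X-inactivation RNA Xist, against 7.39 to 7.81 on the other arrays, and 5.30 for the Y-linked gene Eif2s3y, against 0.27 to 0.62, so sex was not balanced between the groups. The epithelial adhesion gene Epcam read 9.88 to 10.09 on all 6 arrays and the leukocyte phosphatase Ptprc, a marker of all white blood cells, 5.56 to 6.23. The B cell marker Ms4a1 read 1.74 to 2.14, near the lower quartile.

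No lymphocyte marker passed the test between the groups. Of the 10, none was higher and none lower at a limma adjusted p under 0.05, where the background over all genes was 8.24%. At an unadjusted p under 0.05 there were 2, Cd3g and Itgae, both higher in the KO-labelled arrays, against 24.7% of all genes. The same 2 were the members whose values separated the groups fully, which 29.3% of all genes did. The median log2 fold change of the 10 was 0.13, with 7 above 0; over all genes the median was 0.00 and 49.0% were above 0. The size of the change, sign ignored, had a median of 0.13 for the members and 0.14 for all genes. Without control replicate 3, the array with male signals, the median was 0.05 and none passed. That fit called 393 genes higher and 286 lower, fewer than with all 6 arrays. The lack of a marker call in it therefore cannot decide whether sex mattered, which was not tested. Over all 6 fits that leave out 1 array the median ran from 0.02, without KO-labelled replicate 1, to 0.22, without KO-labelled replicate 3, and none passed in any.

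Missing the threshold does not show that levels were equal, so the 95% intervals matter here. All 10 intervals lay within a 2-fold change in either direction. That of Klrk1 says little about its transcript, since its signal was at or near the lower quartile of all probe sets. The lowest bound, 0.578-fold, belonged to Gzmb and the highest, 1.5-fold, to Itgae. Before adjustment 8 of the 10 intervals included 0.

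**Figure D1:**
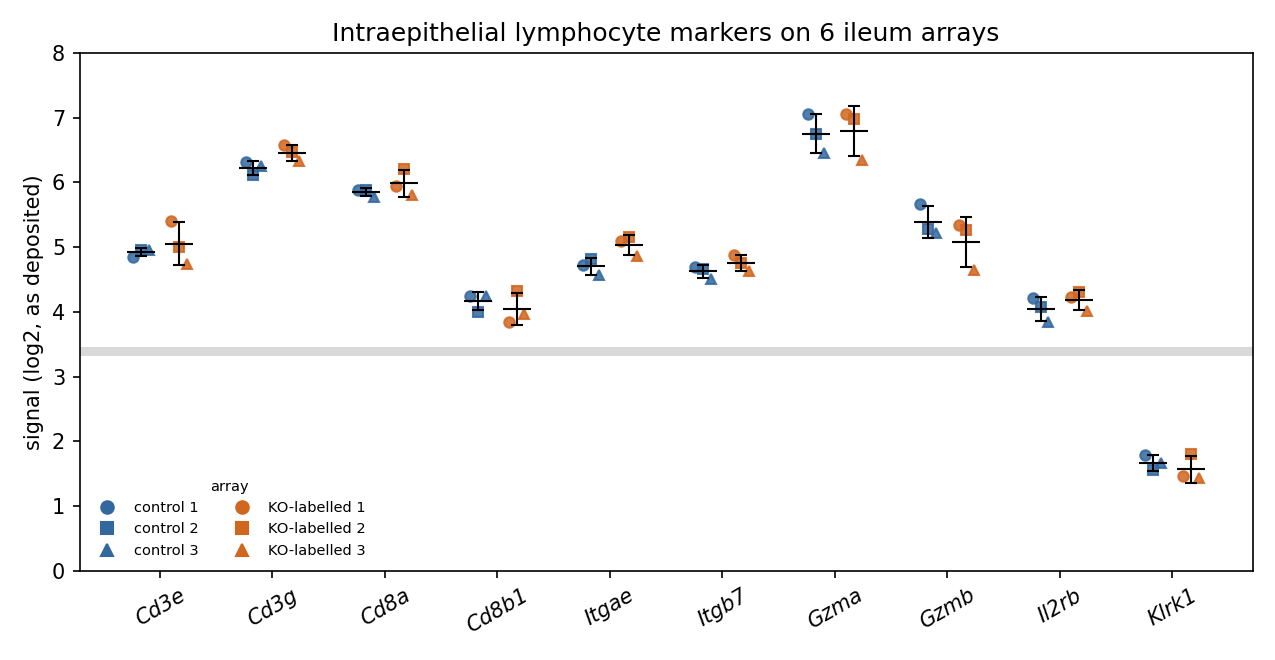
Signal of the 10 markers on the 6 arrays (log2, as deposited); each point is 1 mouse, the bar and whiskers are the group mean and SD (n = 3), and the grey band is the range of the array medians, 3.33 to 3.44. Of the markers 9 lie above the band, and Klrk1 lies below it; only Cd3g and Itgae have groups that do not overlap.

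Cd3e and Cd3g encode subunits of CD3, which passes the signal of the T cell receptor into the cell. Cd3g read 6.32, 6.11 and 6.26 in controls and 6.58, 6.47 and 6.33 on the KO-labelled arrays. The groups stood apart narrowly, with the lowest KO-labelled array just above the highest control. This made a log2 fold change of 0.23 (SE 0.10, 95% interval 0.00 to 0.46), 1.17-fold, with a limma adjusted p of 0.199. Cd3e read 4.85, 4.96 and 4.96 in controls and 5.40, 5.01 and 4.74 on the KO-labelled arrays. Here the KO-labelled arrays enclosed the controls, with an SD of 0.33 against 0.06. Cd3e had a log2 fold change of 0.13 (SE 0.16, 95% interval -0.25 to 0.50, limma adjusted p = 0.672).

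The 2 CD3 genes lie on the same chromosome with Cd3d between them, and their RefSeq promoter windows (build GRCm38.p6, 250 bases before to 50 after the start) are shown since Gata6 encodes a factor that binds GATA letters. The letters searched were GATA with A or T just before and A or G just after, on both strands; overlapping matches were counted by their starts, and matches are in capitals. The third window, of the epithelial gene Btnl2 described further on, was picked after its values were seen. That gene fell, and its window held the most matches of the partner genes searched by name. Besides the markers, those were only Ccl25, Btnl1, Btnl2 and Gpr55, all called lower on the KO-labelled arrays. No gene called higher was searched by name, so whether matches go with a fall was not tested.
Cd3g, chr9:44980382-44980681, minus strand: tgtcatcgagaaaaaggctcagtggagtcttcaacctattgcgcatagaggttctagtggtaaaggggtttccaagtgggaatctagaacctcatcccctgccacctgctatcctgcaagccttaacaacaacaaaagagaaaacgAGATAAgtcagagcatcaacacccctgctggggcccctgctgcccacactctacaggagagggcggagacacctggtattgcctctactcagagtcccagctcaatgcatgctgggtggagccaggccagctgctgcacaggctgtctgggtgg
Cd3e, chr9:45009562-45009861, minus strand: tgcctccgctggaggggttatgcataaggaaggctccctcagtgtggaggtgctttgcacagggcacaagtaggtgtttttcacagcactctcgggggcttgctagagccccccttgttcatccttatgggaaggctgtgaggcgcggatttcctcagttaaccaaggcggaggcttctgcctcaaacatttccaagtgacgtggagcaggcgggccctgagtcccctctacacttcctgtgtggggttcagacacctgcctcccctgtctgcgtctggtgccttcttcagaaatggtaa
Btnl2, chr17:34354572-34354871, plus strand: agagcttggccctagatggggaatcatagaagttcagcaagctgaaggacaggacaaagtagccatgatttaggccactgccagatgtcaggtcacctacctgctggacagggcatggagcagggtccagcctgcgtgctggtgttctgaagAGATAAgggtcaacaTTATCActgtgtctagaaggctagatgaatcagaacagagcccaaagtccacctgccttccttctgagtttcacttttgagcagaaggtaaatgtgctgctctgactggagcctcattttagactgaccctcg
The window of Cd3g holds 1 match, that of Cd3e none and that of Btnl2 2. Of the other lower genes searched by name, Btnl1 had 1 match, Gpr55 had none, and the 2 windows listed for Ccl25 had 0 and 1. Of the members, 7 had a window, and Cd8b1, Itgae and Il2rb had none. Of the 7, 3 held a match, namely Cd3g, Itgb7 and Klrk1, and 4 did not. Over 27025 genes, each by its first window, the share was 30.2%. A match describes the letters of the window and is not a binding site.

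Cd8a and Cd8b1 encode the alpha and beta chains of CD8, the co-receptor for MHC class I. The alpha chain can also pair with itself, the form typical of the unconventional lymphocytes of the epithelium. Cd8a read 5.89, 5.89 and 5.78 in controls and 5.94, 6.21 and 5.81 on the KO-labelled arrays. The controls were nearly level and the groups overlapped. Its log2 fold change was 0.13 (SE 0.11, 95% interval -0.13 to 0.40, limma adjusted p = 0.517). Cd8b1 read 4.24, 4.0 and 4.25 in controls and 3.85, 4.32 and 3.97 on the KO-labelled arrays. The highest and the lowest of these 6 values both came from KO-labelled mice. For Cd8b1 the log2 fold change was -0.12 (SE 0.14, 95% interval -0.44 to 0.21, limma adjusted p = 0.646).

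Itgae encodes the alpha E chain of the integrin that anchors the cells to the epithelium, and Itgb7 its partner beta 7, which also pairs with alpha 4 for homing to the gut. Itgae read 4.72, 4.82 and 4.57 in controls and 5.09, 5.16 and 4.86 on the KO-labelled arrays, all 3 above every control. This was the largest difference among the 10 members and the one with the smallest p. On average it read 0.33 higher on the log2 scale (SE 0.11, 95% interval 0.08 to 0.59), 1.26-fold, and it did not pass over all genes (limma adjusted p = 0.116). Itgb7 read 4.70, 4.67 and 4.51 in controls and 4.88, 4.75 and 4.63 on the KO-labelled arrays. Here 1 KO-labelled array fell among the controls. Its log2 fold change was 0.13 (SE 0.10, 95% interval -0.10 to 0.36, limma adjusted p = 0.463).

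Gzma and Gzmb encode granzymes, serine proteases of cytotoxic granules. Gzma read 7.06, 6.75 and 6.45 in controls and 7.05, 6.98 and 6.35 on the KO-labelled arrays. The 2 groups covered nearly the same span. Its log2 fold change was 0.04 (SE 0.22, 95% interval -0.47 to 0.56, limma adjusted p = 0.930), with the largest SE of the 10, and its sign changed under several settings. Gzmb read 5.67, 5.28 and 5.22 in controls and 5.34, 5.27 and 4.64 on the KO-labelled arrays. KO-labelled replicate 3 was the lowest array for both granzymes. Gzmb had a log2 fold change of -0.30 (SE 0.21, 95% interval -0.79 to 0.18, limma adjusted p = 0.414), or -0.08 without that array.

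Il2rb encodes the beta chain shared by the receptors for interleukins 2 and 15. It read 4.22, 4.07 and 3.85 in controls and 4.23, 4.31 and 4.01 on the KO-labelled arrays, with overlapping groups. The log2 fold change was 0.14 (SE 0.12, 95% interval -0.16 to 0.43, limma adjusted p = 0.556). Klrk1 encodes NKG2D, an activating receptor for stress ligands on epithelial cells. It read 1.79, 1.55 and 1.66 in controls and 1.46, 1.81 and 1.44 on the KO-labelled arrays, at or near the lower quartile of all probe sets, so it was not shown to lie above background. Its difference of -0.09 on the log2 scale (SE 0.12, limma adjusted p = 0.681) therefore says little about the receptor.

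**Figure D2:**
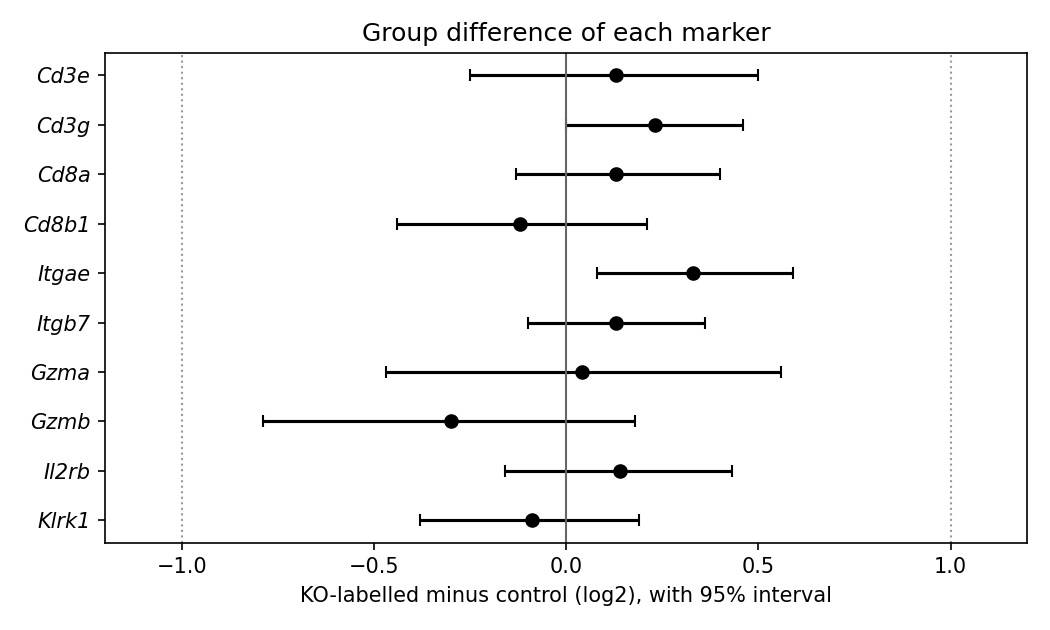
Difference between KO-labelled and control arrays for each marker (log2, limma) with its 95% interval; dotted lines mark a 2-fold change. All 10 intervals lie between the dotted lines, and those of Itgae and Cd3g lie above 0 before adjustment.

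For 9 of the 10 markers, all but Itgae, the range over the 3 KO-labelled arrays exceeded the difference between the group means, as it did for 62.4% of all genes, and for 6 the range over the controls did, against 69.3% of all genes. With each gene centred on its own mean over the 6 arrays, all 10 members lay above it in KO-labelled replicate 2 and all 10 below it in KO-labelled replicate 3, as did 50.8% and 49.1% of all genes. The average deviation of the 10 was 0.16 and -0.19 log2 units on these 2 arrays. It was 0.12 in KO-labelled replicate 1 and 0.08, -0.06 and -0.12 in control replicates 1, 2 and 3. All 10 share the array and the piece of tissue, so they are not 10 separate readings of that difference. The list of 14 genes of all leukocytes averaged 5.86, 5.71 and 5.43 on KO-labelled replicates 1, 2 and 3 and 5.48, 5.41 and 5.21 on the controls, so its lowest KO-labelled array was also replicate 3. The part of leukocyte content in the spread of the markers was not tested.

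**Figure D3:**
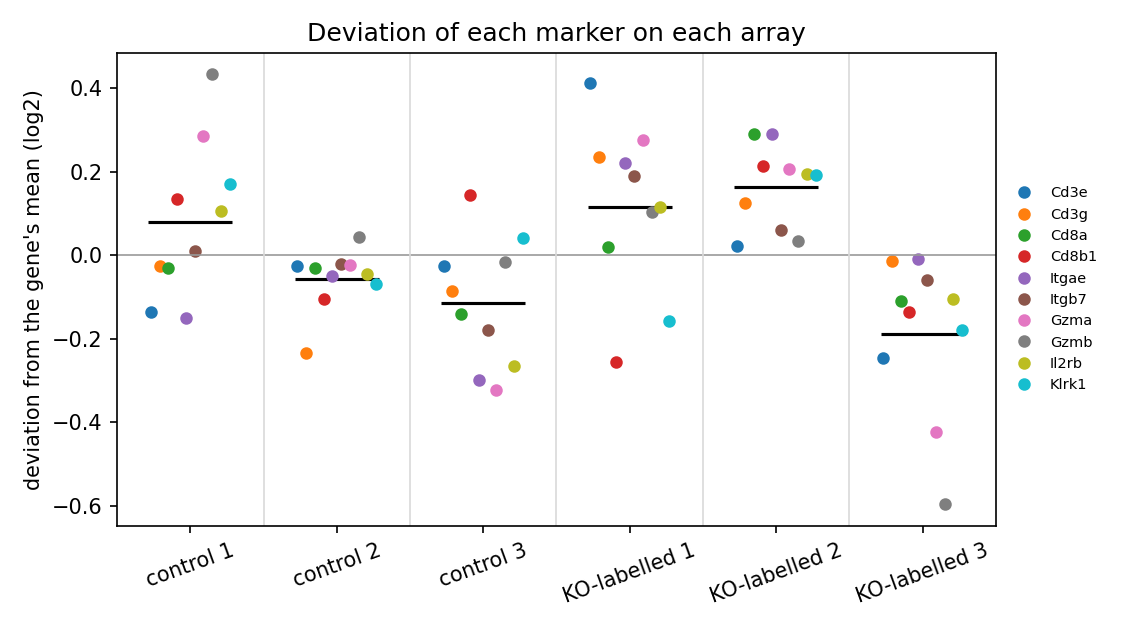
Deviation of each marker from its own mean over the 6 arrays (log2), by array; the black bar is the average of the 10. All 10 points lie above 0 on KO-labelled array 2 and below 0 on KO-labelled array 3, the bars at 0.16 and -0.19.

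Related T cell genes gave no call. Of 16 measured genes of the T cell receptor complex and its signalling, none passed, 4 had an unadjusted limma p under 0.05 (all genes: 24.7%), and the median log2 fold change was 0.03. The adapter Lcp2 read 0.36 higher (SE 0.15, limma adjusted p = 0.198), Themis, needed for T cell selection, 0.35 (SE 0.14, 0.190) and the CD3-associated adapter Trat1, which lay below the lower quartile on all 6 arrays, 0.30 (SE 0.12, 0.175), while the transcription factor Bcl11b read -0.25 (SE 0.10, 0.184). Of 12 helper and regulatory T cell genes none passed, also at an unadjusted p under 0.05, and their median was -0.07. The 4 with the smallest p were Il17a, Ccr7, Cd40lg and Ctla4, at log2 fold changes from -0.38 to -0.17 and limma adjusted p from 0.230 to 0.543; Cd40lg lay below the lower quartile on all 6 arrays.

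Cytotoxic genes included 1 that passed. Of 24 measured, Serpinb9, an inhibitor that shields cells from granzyme B, read 3.41, 3.85 and 3.26 in controls and 4.26, 4.23 and 4.01 on the KO-labelled arrays. The groups did not overlap, and the log2 fold change was 0.66 (SE 0.16), 1.58-fold, at a limma adjusted p of 0.0491. That call was lost without control replicate 1 or 3 or any 1 of the KO-labelled arrays, where the adjusted p reached 0.167. The background for higher genes was 4.99%. The granule protease Ctsw and the granule membrane protein Nkg7 each read 0.45 higher (SE 0.12 and 0.17, limma adjusted p = 0.0681 and 0.154) and the chemokine Ccl5 0.38 (SE 0.16, 0.197), and the median of the list was 0.03.

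Of 18 genes tied to life within the epithelium, 1 was lower, against a background of 3.25% for lower genes, and none was higher. Gpr55, a lysophospholipid receptor, read 4.30, 4.32 and 4.25 in controls and 3.50, 3.50 and 3.44 on the KO-labelled arrays. The values within a group were nearly equal and the groups far apart for this gene. The log2 fold change was -0.81 (SE 0.07), 0.572-fold, with a limma adjusted p of 0.0013, and the call held without each array in turn (highest adjusted p 0.0117). Ahr, the aryl hydrocarbon receptor that intraepithelial lymphocytes need to persist, read 0.24 higher (SE 0.08, limma adjusted p = 0.126). The integrin chains Itgal and Itga1 each read 0.32 higher (SE 0.13 and 0.14, 0.177 and 0.205). Whole ileum was measured, so these signals, that of Gpr55 included, cannot be assigned to lymphocytes.

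The interleukin 2, 7 and 15 axis also gave no call. None of 13 passed, 5 had an unadjusted limma p under 0.05 (all genes: 24.7%), all higher, and the groups did not overlap for 6 of them (all genes: 29.3%). The cytokine-induced inhibitor Cish read 0.42 higher (SE 0.10, limma adjusted p = 0.0513), the survival genes Bcl2 and Mcl1 0.44 and 0.30 (SE 0.12 and 0.11, 0.0693 and 0.158) and the signal transducer Stat5b 0.32 (SE 0.10, 0.114). Calls appeared in other fits, for Bcl2 in 4 alternatives (lowest adjusted p 0.0351), for Cish in 1 (0.045) and for Mcl1 in 1 (0.0357). These genes are also expressed outside lymphocytes. Il15 itself, named after its values were seen, read 4.06 ± 0.08 in controls and 4.30 ± 0.18 on the KO-labelled arrays (SD, n = 3, limma adjusted p = 0.221).

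Some epithelial partners of these lymphocytes fell. Ccl25, the homing chemokine, read 9.62, 9.69 and 9.98 in controls and 5.04, 5.66 and 7.08 on the KO-labelled arrays, a difference of -3.84 (SE 0.46) on the log2 scale, 0.0699-fold, which passed (limma adjusted p = 0.0042). A second, dimmer Ccl25 probe set, with a mean log2 signal of 3.73, did not show this and differed by -0.16 (limma adjusted p = 0.329 with every probe set tested). Ccl25 was the only 1 of 12 measured adhesion and homing genes to pass, where 8.24% of all genes did. Its receptor Ccr9, named after its values were seen, read 4.06, 4.62 and 4.14 in controls and 4.19, 4.08 and 3.77 on the KO-labelled arrays. These groups overlapped, and Ccr9 differed by -0.26 on the log2 scale (SE 0.17, 95% interval -0.66 to 0.15, limma adjusted p = 0.402). KO-labelled replicate 3 had the most Ccl25 of its group and was the array on which all 10 lymphocyte markers lay below their means. This is 1 array, on which 49.1% of all genes also lay below their means. The list of all leukocytes was likewise lowest of its group there, at 5.43. A link between Ccl25 and the markers was not tested. Cdh1, the E-cadherin bound by alpha E beta 7 and likewise named after its values were seen, read 9.20 ± 0.03 and 9.30 ± 0.02 (SD, n = 3, limma adjusted p = 0.379). Among genes that did not pass were Ccl28, Itgb1 and Itgb2, at log2 fold changes of 0.27, 0.22 and 0.70 (limma adjusted p = 0.0907, 0.129 and 0.236).

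Of 14 measured epithelial ligands and class I presentation genes, 2 fell and none rose (all genes: 3.25% lower, 4.99% higher), both butyrophilin-like genes whose products sit on enterocytes. Btnl2, whose product restrains T cells in culture, read 6.99, 7.16 and 7.21 in controls and 6.16, 6.00 and 6.14 on the KO-labelled arrays. Its log2 fold change was -1.02 (SE 0.09), 0.492-fold, at a limma adjusted p of 0.00144. Btnl1, which in mice is needed for gamma delta intraepithelial lymphocytes, read 6.95, 7.14 and 7.29 in controls and 6.32, 6.58 and 6.60 on the KO-labelled arrays. The groups of both genes stood clear of each other. Btnl1 had a log2 fold change of -0.63 (SE 0.12), 0.647-fold, at a limma adjusted p of 0.022, and that call was lost without control replicate 2 or 3 or any 1 of the KO-labelled arrays (0.057 to 0.0788). The immunoproteasome subunit Psmb9 and the NKG2D ligand H60b read -0.33 and -0.31 (SE 0.12 and 0.11, limma adjusted p of 0.138 each), H60b below the lower quartile of the arrays.

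**Figure D4:**
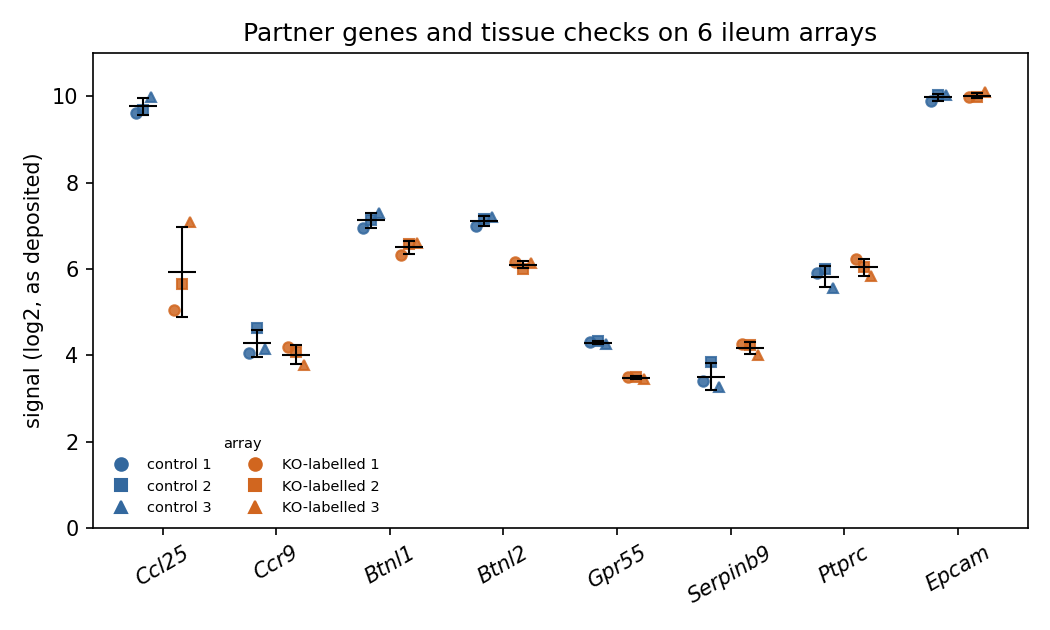
Signal on the 6 arrays (log2, as deposited) of epithelial partner genes, 2 receptors, Serpinb9 and 2 tissue checks; each point is 1 mouse, with the group mean and SD (n = 3). Ccl25, Btnl1, Btnl2 and Gpr55 are lower and Serpinb9 higher in the KO-labelled arrays without overlap, while the groups overlap for Ccr9, Ptprc and Epcam.

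Markers of the other cells of whole ileum moved as follows. As background, 4.99% of all genes were called higher, 3.25% lower, and 24.7% had an unadjusted limma p under 0.05. None of 13 B cell and follicle genes, 6 plasma cell genes or 12 mast cell and granulocyte genes passed, and none had an unadjusted limma p under 0.05; Cd79a was lowest at -0.40 (SE 0.18, limma adjusted p = 0.223). Of 16 macrophage and dendritic cell genes 1 rose, the endotoxin co-receptor Cd14, by 1.23 (SE 0.23, limma adjusted p = 0.021), a call lost without control replicate 2 or 3 or KO-labelled replicate 1 or 2 (up to 0.0939). Of 6 innate lymphoid genes Kit, which pacemaker cells of gut muscle also express, rose by 0.67 (SE 0.10, 0.0109), a call lost without KO-labelled replicate 2 (0.0586).

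All 14 leukocyte genes had a log2 fold change above 0, with a median of 0.28, yet none passed, and 4 had an unadjusted limma p under 0.05; the shares of all genes were 49.0% above 0 and 24.7% at that p. The phosphatase Ptpn6 read 0.29 higher (SE 0.08, limma adjusted p = 0.0608, and 0.0318 to 0.0482 in the 3 alternatives where it passed) and Hcls1, an actin-binding signalling protein, 0.26 (SE 0.10, 0.167). The mean log2 signal of this list was 5.21 to 5.48 in controls and 5.43 to 5.86 on the KO-labelled arrays, so the ranges overlapped. Relative to these 14 genes, 9 of the 10 lymphocyte markers were lower on the KO-labelled arrays, Itgae being the exception, with a median log2 difference of -0.17; the median of all genes on that scale was -0.30. Gzmb then read -0.60, at a limma adjusted p of 0.0436, and was the only marker that passed; on that scale 8.52% of all genes were called lower.

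All 10 smooth muscle genes had log2 fold changes above 0 (median 0.34). Of these, 8 had an unadjusted limma p under 0.05, and for 6 the groups did not overlap. Only 1, Tagln, passed (0.46, SE 0.10, limma adjusted p = 0.0388), a call lost without control replicate 1 or 3 or KO-labelled replicate 2 or 3 (0.110 to 0.142). Of all genes, 49.0% were above 0, 24.7% had such a p, 29.3% did not overlap and 4.99% were called higher. The mean log2 signal of the smooth muscle list was 7.55 to 7.75 in controls and 7.74 to 8.09 on the KO-labelled arrays. With that mean as a covariate no lymphocyte marker passed, and their median log2 fold change was 0.23. Over all genes that fit called only 51 higher and 53 lower, so the lack of a marker call in it decides little. Of 15 epithelial genes 2 were called higher and 1 lower, where 4.99% and 3.25% of all genes were. Esrp1, a splicing regulator, rose by 0.80 (SE 0.07, limma adjusted p = 0.00148) and Krt19, a keratin, by 0.33 (SE 0.07, 0.0394). The call of Krt19 was not followed under the alternatives or without single arrays. Vil1, the actin-bundling protein villin, fell by 0.41 (SE 0.08, 0.0225), a call lost without control replicate 3 or any 1 of the KO-labelled arrays (0.0607 to 0.0954). The list averaged 9.09 to 9.22 in controls and 9.21 to 9.32 on the KO-labelled arrays, and relative to it the median log2 difference of the lymphocyte markers was 0.02, with none passing.

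**Figure D5:**
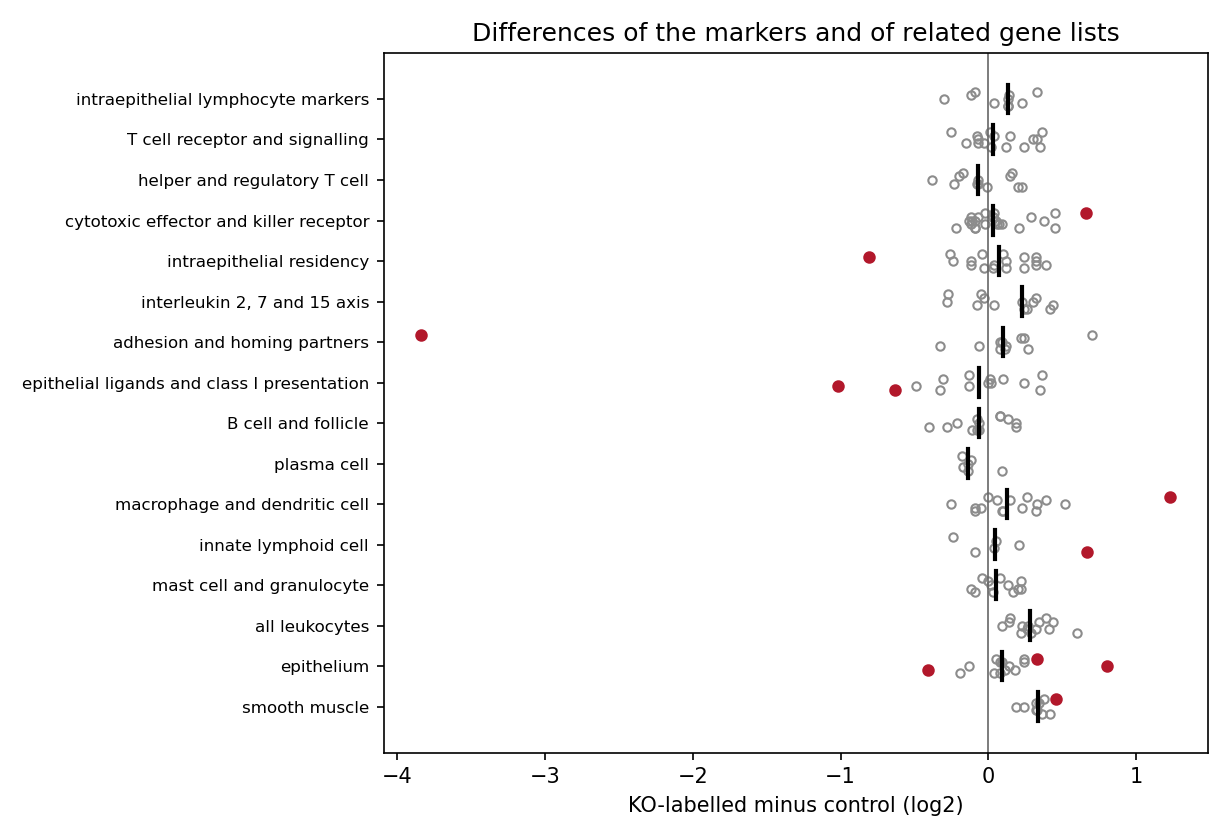
Log2 difference between KO-labelled and control arrays for each measured gene of the lymphocyte markers and 15 related lists; red points passed at a limma adjusted p of 0.05 over all genes and black bars are medians. No lymphocyte marker is red, and the farthest red point is Ccl25 at -3.84.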

How the data were processed

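Total RNA of whole ileum from 6 mice, 3 per group as the sample titles state, was measured on Affymetrix arrays. The values the authors deposited are log2 signals of probe sets, 1 column per array. Per the submitters' processing notes the tool was Affymetrix Expression Console; its version and its background and normalization methods are stated in no source used here, and the log2 unit was inferred from the range of the values. Of 35557 probe sets, 21789 name 1 gene symbol, 1621 several and 12147 are not listed in the platform annotation; the last 2 kinds were not used. The brightest probe set per gene gave 19938 genes, and no dim gene was removed.

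Tests used lmFit and eBayes of limma 3.58.1 (R 4.3.3), KO-labelled minus control, two-sided, with Benjamini-Hochberg adjustment over all genes and a threshold of 0.05; SE and 95% intervals are the moderated ones. The fit was tested on simulated data. The markers and gene lists were chosen with earlier results of these data known. Named genes were the 10 markers, Gata6, up to 4 genes with the smallest p per T cell or partner list, up to 2 per list of other cells, 4 tissue checks and the 6 genes of nearest profile; others are said to be named after their values were seen, as are Krt19 and Eif2s3y with Xist. Lists were described by counts and medians, with no set test. The number of arrays limits the precision. Alternatives covered scaling, dim genes, probe sets, moderation, array weights, the replicate block, covariates and leaving out each array.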

Additional observations from a re-analysis of the deposited data

How the results depend on the processing

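None of the 10 lymphocyte markers passed in any of the 17 alternatives planned for all results; only centring on the leukocyte list brought a call, that of Gzmb at -0.60. No marker has a second probe set, so that alternative could not differ for them beyond its adjustment, and Klrk1 was too dim for the filter at the median gene. Of the marker values under all alternatives, 14 changed sign. On centring on the leukocyte list Cd3e became -0.17, Cd3g -0.07, Cd8a -0.16, Itgb7 -0.17, Gzma -0.25 and Il2rb -0.16; Gzma also became -0.04 on the T cell list, -0.07 on the epithelium list and -0.01 after quantile normalization, and Gzmb 0.07 with the smooth muscle covariate. Leaving out 1 array gave Cd3e -0.05 to 0.28, Gzma -0.11 to 0.26, Ms4a1 -0.14 to 0.05 and Epcam -0.01 to 0.06. Ms4a1 was 0.03 with the B cell and follicle covariate and 0.01 after quantile normalization, and Epcam -0.01 on centring at the median. With the smooth muscle covariate Epcam read -0.04, Cd40lg 0.01, Ctla4 0.44, Itga1 -0.02, Fcrl1 0.06 and Alas2 0.20. The count of higher and lower genes was 458 and 371 with the B cell and follicle covariate, 168 and 106 without moderation, 51 and 53 with the smooth muscle covariate, 320 to 806 and 277 to 597 without 1 array, and 841 and 773 after quantile normalization. Gata6 lost its call with the B cell and follicle covariate (log2 fold change 0.49, limma adjusted p = 0.0557) and without moderation (0.49, 0.0695). It also lost it with the smooth muscle covariate (0.59, 0.183). The log2 fold change of Gata6 was 0.46 to 0.55 without 1 array. Of the 11 named genes that passed, Gata6 included, each lost the call under at least 1 alternative; Btnl2, Gpr55 and Esrp1 lost it only with the smooth muscle covariate (adjusted p 0.0781, 0.0695 and 0.0827). Of the 39 named genes that had not passed, markers aside, 9 gained a call under at least 1 alternative, 17 calls in all (adjusted p in brackets): with array weights Ctsw (0.0487), Bcl2 (0.0419), Ptpn6 (0.0482) and Acta2 (0.0417); among genes at or above the median gene Bcl2 (0.0351), Ccl28 (0.0494), Ptpn6 (0.0318), Acta2 (0.0349) and Myh11 (0.0473); with trended and robust moderation Cish (0.045), Bcl2 (0.0477), Ptpn6 (0.0471), Acta2 (0.0284) and Myh11 (0.0442); without control replicate 2 Bcl2 (0.0383) and Mcl1 (0.0357); and Itgb2 with the replicate block. The cause of these changes was not tested. Some of these fits had fewer arrays or fewer residual degrees of freedom than the main fit. The replicate number as a block gave 766 higher and 475 lower genes, no marker call and 0.49 for Gata6; among the named genes it gave Itgb2 a call (0.0401) and took that of Vil1 (0.0579). Arrays of the same number correlated at 0.0425, -0.0403 and 0.153 in their deviations from the group means, so the numbers were not taken to pair mice.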

Other observations

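Within each array, differences between markers were set side by side for 6 pairs chosen after their values were seen. Gzmb minus Gzma was -1.38, -1.47 and -1.23 in controls and -1.71, -1.71 and -1.71 on the KO-labelled arrays, a shift of -0.35 log2 units, with the 2 groups apart. Itgae minus Itgb7 was 0.02, 0.14 and 0.07 in controls and 0.20, 0.41 and 0.23 on the KO-labelled arrays, a shift of 0.20, also apart. A two-sided exact permutation test over the arrays gave p = 0.1 for each, the smallest p that 3 arrays against 3 allow, and an adjusted p of 0.3 over the 6 pairs. The difference of Cd8b1 from Cd8a shifted by -0.25 (exact permutation p = 0.3), with overlapping groups, and that of Itgae from Cd3e by 0.21 (exact permutation p = 0.3). Gzmb minus Cd3e had the largest shift of the 6 pairs, -0.43 (exact permutation p = 0.2). Cd3g minus Cd3e shifted by 0.10 (exact permutation p = 0.5).

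Among 5668 genes as bright as the median gene and at least as variable as the average profile of the 10 markers (SD 0.14 log2 units), the 6 nearest to that profile over the 6 arrays were Isca2, Recql, Procr, Chst11, Selplg and Fam214a, with root mean square differences of 0.040 to 0.071 log2 units. All points share the 6 arrays.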
